A study of Rattus norvegicus with 20 samples.

Results

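The SLC25 genes encode the mitochondrial carrier family, here the 38 members measured by a probe set of a single gene, out of 14217 genes measured in the same way. Members were taken by symbol, leaving out Slc25a20, and where a gene had several probe sets the brightest in mRNA, averaged over both hearts, stood for it. These 38 genes had 56 probe sets between them: 26 genes had 1, and 12 had 2 or more, up to 6 for Slc25a15.

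Carriers of this family are small proteins of the inner mitochondrial membrane that move nucleotides, phosphate, metabolites, amino acids, cofactors and metal ions between cytosol and matrix. The heart makes most of its ATP in mitochondria, so the exchange of ADP for ATP and the uptake of phosphate lie on the path of its energy supply. A few relatives sit elsewhere, such as the peroxisomal carrier Slc25a17 and the outer membrane protein Slc25a46.

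Left ventricle was taken from a failed and a normal heart of Dahl rats, strains that differ in how their blood pressure responds to salt. The failed heart is labelled as congestive heart failure, and a high-sodium diet is stated for its mRNA sample only. The normal heart is labelled as normal, with no diet stated. An age of 19 weeks is given for both hearts, except on the normal H4ac sample, whose source label also reads as pre-IP DNA although its title names H4ac; it was used as H4ac. Each heart had 10 arrays: mRNA, genomic DNA before immunoprecipitation (pre-IP), and chromatin immunoprecipitates (ChIP) of 8 histone marks, namely acetylated H3 and H4 (H3ac, H4ac), di- and trimethylated K4 (K4me2, K4me3) and K9 (K9me2, K9me3), trimethylated K20 (K20me3) and dimethylated K27 (K27me2). Acetylation and K4 methylation are known from active promoters, and methylation of K9, K20 and K27 mostly from less active chromatin. A single ventricle specimen stood behind each experiment, so there was 1 array per assay and heart, no value has a replicate error, and no test was possible. A difference below is between 2 arrays.

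Signals are intensities rescaled to a median of 100 on each array, with a floor of 10, and every difference is the log2 value of the failed heart less that of the normal heart, so that 1 is 2-fold. Signals of different probe sets are not amounts that can be ranked against each other. The array is an expression array, so a ChIP value describes DNA under transcript probes rather than at a promoter. The arrays' deposited medians ran from 189 to 415, and from 2.14% to 11.0% of an array's probe sets lay under the floor. The mRNA is labelled as left ventricular myocytes, yet markers of other cells were measured on both arrays. No measured marker lay at the floor of 10, but some were close to it. The adipocyte marker Lep had 10.04 in the failed and 10.17 in the normal heart, and the macrophage marker C1qb 14.1 in the normal heart. All 6 fibroblast markers were higher in the failed heart (summed signal 44687 in the failed and 16812 in the normal heart), as were all 4 macrophage markers that passed the level filter (9309 in the failed and 1976 in the normal heart, all 5 summed), while all 5 smooth muscle markers were lower (2380 in the failed and 5595 in the normal heart). Of 8 cardiomyocyte markers, 6 were higher, with a summed signal of 122973 in the failed and 116580 in the normal heart; after quantile normalization only 3 were higher. The ratio of 3′ to 5′ signal of GAPDH, a sign of RNA or cDNA length, was 22.6 in the failed and 11.3 in the normal heart, and that of beta-actin was 12.4 in the failed and 18.2 in the normal heart. That of hexokinase was 0.447 in the failed and 0.148 in the normal heart, so that 2 of the 3 ratios were higher in the failed heart. The part of cell makeup and RNA quality in the mRNA values below was not tested. In such bulk samples, fewer cells of a type and less RNA per cell cannot be told apart.

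The mRNA comparison addressed which carriers' transcripts differed between the failed and the normal ventricle. The carrier genes did not share a direction: 13 of the 27 members that passed the level filter had more mRNA in the failed heart, against 64% of the 9317 genes that passed it. Their median difference was -0.04, against 0.23 over all those genes. The filter asks for a mean log2 signal at or above the median of all probe sets. Among the 27, Slc25a4, Slc25a5 and Slc25a30 were at least 2-fold higher in the failed heart (background 11.8%), and Slc25a23 alone was at least 2-fold lower (background 3.14%). The 3 of 27 and the 1 of 27 lie near the shares that all genes gave. As deposited, the log2 ratio of the mRNA array medians is -0.27 (failed over normal). With these values 10 of 27 members were above 0, against 4442 of 9317 genes. After quantile normalization over all arrays it was 10 of 27, against 4692 of 9312 genes. The split of 3 higher and 1 lower was 2 and 2 as deposited (all genes 6.10% and 6.86%). It was 0 and 0 with quantile normalization over all arrays (all genes 2.47% and 1.77%). Within the mRNA assay it was 0 and 3 (all genes 6.35% and 5.79%).

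**Figure D1:**
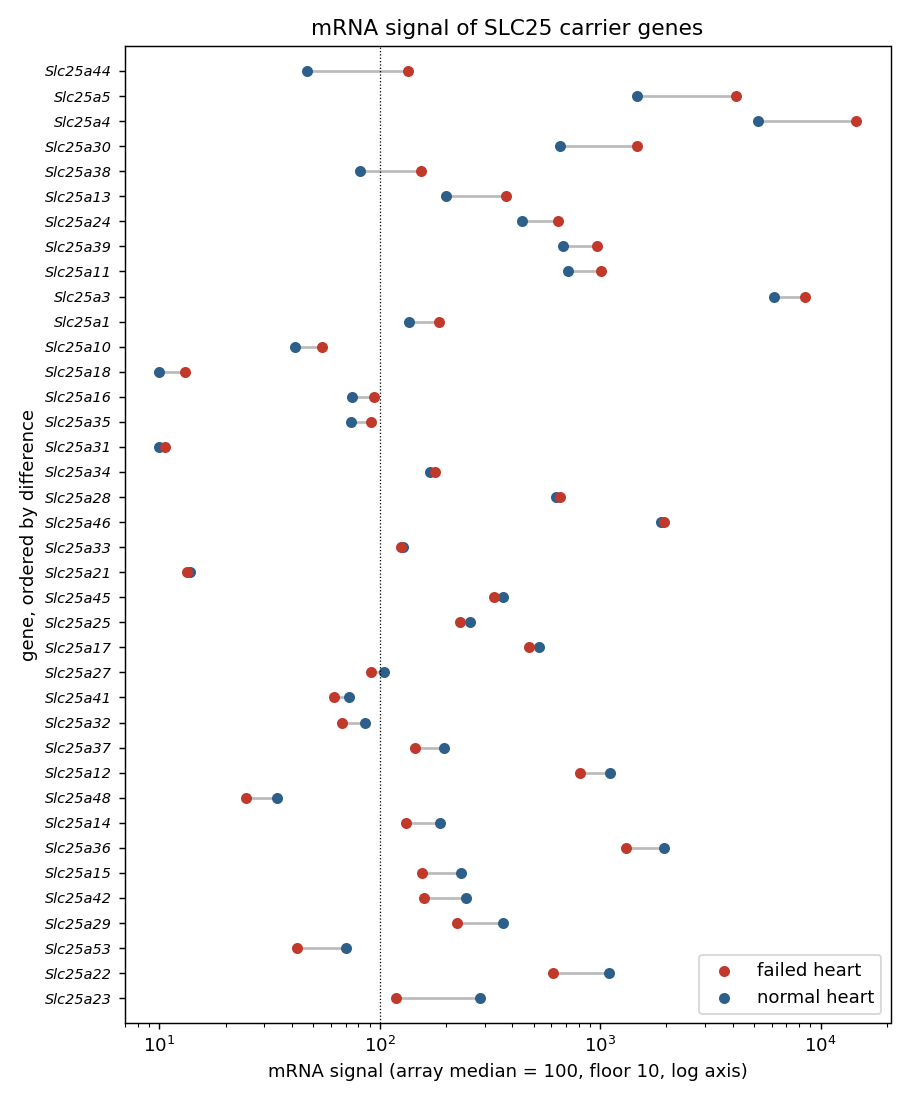
mRNA signal (x axis, array median 100, floor 10, log axis) of the 38 SLC25 genes (y axis, ordered by difference) in the failed heart (red) and the normal heart (blue), 1 array each, with a dotted line at the array median. Slc25a4 and Slc25a5 lie to the right with the failed heart well above the normal heart, and Slc25a23 at the bottom has 118 in the failed and 285 in the normal heart.

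ADP/ATP carriers swap cytosolic ADP for matrix ATP. Slc25a4, the isoform of heart and muscle, had an mRNA signal of 14439 in the failed heart, against 5226 in the normal heart, a difference of 1.47 (2.76-fold). Slc25a5, the isoform common in other tissues, had 4131 in the failed heart, against 1475 in the normal heart, a difference of 1.49 (2.80-fold). Both were higher in the failed heart by nearly the same factor, although their signals stood apart. Slc25a31, known from testis, had 10.6 in the failed heart and lay at the floor in the normal heart, so the third isoform gave no measurable difference. With quantile normalization within the mRNA assay the differences were 0.81 for Slc25a4 and 0.96 for Slc25a5, under 2-fold; neither changed direction in any setting tried.

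Brighter genes as a whole were higher in the failed heart on this scaling. Of 1539 genes with a mean signal of at least 10 times the array median, 22.2% were at least 2-fold higher and 0.975% lower, with a median difference of 0.52; 5 members were among them, with a median of 0.47, and 2 of the 5 were 2-fold higher. Below that signal the median of 7778 genes was 0.18, with 9.81% higher and 3.57% lower, while 22 members had a median of -0.15, with 1 gene higher and 1 gene lower. The plot of difference against signal shows this slope.

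**Figure D2:**
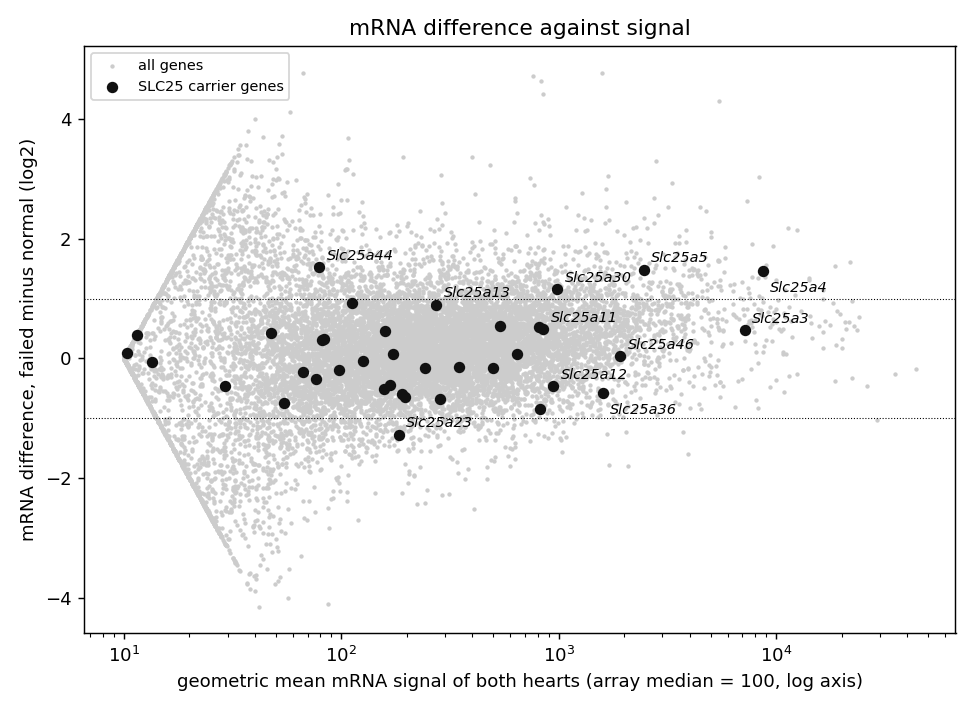
mRNA difference (y axis, failed minus normal, log2) against the geometric mean mRNA signal of both hearts (x axis, array median 100, log axis) for 14217 genes (grey) and 38 SLC25 genes (black), with dotted lines at 2-fold. Slc25a4 at 1.47 and Slc25a5 at 1.49 lie at the bright end, and the pattern of lines at the left comes from values at the floor.

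The windows around the transcription starts of the 2 ADP/ATP carriers that were higher and of Slc25a23, the carrier that was lower, are shown so that their sequence can be set beside the mRNA values. They span 250 bases before to 50 after the start in RefSeq on GRCr8: chr16:52805271-52805570 on the plus strand for Slc25a4, chrX:120897366-120897665 on the plus strand for Slc25a5, and chr9:1985316-1985615 on the minus strand for Slc25a23. Capitals mark motifs searched on both strands. The TATA box was searched as TATAA and the GC box as GGGCGG, which reads CCGCCC when it lies on the opposite strand. The CCAAT box was searched by the letters of its name, and the core of ETS factor sites as CCGGAA. No marked motif overlaps another in these windows.
Slc25a4: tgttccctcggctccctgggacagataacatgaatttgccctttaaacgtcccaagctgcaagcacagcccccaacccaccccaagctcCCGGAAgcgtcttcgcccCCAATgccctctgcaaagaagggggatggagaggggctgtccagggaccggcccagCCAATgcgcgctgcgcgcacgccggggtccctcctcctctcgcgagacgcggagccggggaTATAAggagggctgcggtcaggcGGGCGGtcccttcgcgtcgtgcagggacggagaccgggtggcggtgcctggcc
Slc25a5: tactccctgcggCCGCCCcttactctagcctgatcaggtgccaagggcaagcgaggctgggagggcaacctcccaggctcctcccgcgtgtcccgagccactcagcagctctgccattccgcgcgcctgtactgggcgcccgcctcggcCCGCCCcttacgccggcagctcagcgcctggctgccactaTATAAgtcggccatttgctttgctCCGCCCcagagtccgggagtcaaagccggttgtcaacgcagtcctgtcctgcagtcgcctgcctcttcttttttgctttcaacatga
Slc25a23: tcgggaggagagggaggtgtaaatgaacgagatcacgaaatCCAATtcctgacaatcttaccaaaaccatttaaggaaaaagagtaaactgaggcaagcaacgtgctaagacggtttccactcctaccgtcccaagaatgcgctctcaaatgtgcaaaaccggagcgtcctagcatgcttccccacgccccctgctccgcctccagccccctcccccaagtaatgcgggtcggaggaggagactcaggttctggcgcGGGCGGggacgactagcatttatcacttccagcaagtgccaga
TATAA lies at -26 to -22 from the start in Slc25a4 and at -61 to -57 in Slc25a5, and no match was found in the Slc25a23 window. CCAAT occurs at -143 and -87 in Slc25a4 and at -209 in Slc25a23. GGGCGG is found in each of the 3 windows, at -3 in Slc25a4, on the minus strand at -238, -101 and -37 in Slc25a5, and at 8 in Slc25a23. A window was matched for 33 of the 38 members. Over these, TATAA was in 12.1% (26.1% of all 27457 windows, 16% of the 11700 windows of genes on the array), GGGCGG in 72.7% (34.9% and 57.5%), CCAAT in 57.6% (37.7% and 37.3%) and CCGGAA in 24.2% (15.8% and 24.3%). AAGGTCA, a half-site of estrogen-related receptors, was in 3.03% (4.37% and 3.15%), and TGCGCA, the start of the NRF-1 motif, in 12.1% (7.68% and 11.9%). These are matches of letters and say nothing of binding.

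Phosphate enters the matrix through Slc25a3. Its mRNA signal was 8470 in the failed heart, against 6120 in the normal heart, a difference of 0.47, which turned to -0.21 and -0.25 with the quantile normalizations over all arrays and within the assay. The direction for this carrier is therefore not settled by these arrays.

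The malate-aspartate shuttle brings reducing equivalents of cytosolic NADH into mitochondria, and its carriers differed in direction. Slc25a11, which exchanges malate for oxoglutarate, had 1009 in the failed heart, against 718 in the normal heart (0.49). Slc25a12, the aspartate/glutamate carrier of heart and brain, had 807 in the failed heart, against 1107 in the normal heart (-0.46). Its relative of liver, Slc25a13, had 374 in the failed heart, against 200.3 in the normal heart, a difference of 0.90 that was 0.20 at its other probe set. The failed heart was thus the higher one for Slc25a13 and the lower one for Slc25a12, both by less than 2-fold and in each scaling tried. Of the glutamate carriers, Slc25a22 had 613 in the failed heart, against 1099 in the normal heart (-0.84), and -1.11 as deposited. Slc25a18 was near or at the floor, with 13.1 in the failed heart.

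Among carriers of di- and tricarboxylates only Slc25a1, the citrate carrier, passed the level filter, with 187 in the failed heart, against 136 in the normal heart (0.45). Slc25a10, the dicarboxylate carrier, was below the filter at 0.42, and -1.43 at its other probe set. Slc25a21, the oxoadipate carrier, was near the floor in both hearts.

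Slc25a14, Slc25a27 and Slc25a30 resemble the uncoupling proteins. Slc25a30, first described in kidney, had 1470 in the failed heart, against 659 in the normal heart, a difference of 1.16 (2.23-fold). It was the higher one at the other probe set as well, by 0.72, and by 0.66 to 1.16 over the settings tried, so that 2-fold was reached with some of them only. Slc25a14 at -0.51 and Slc25a27 at -0.20 were lower in the failed heart by less than 2-fold.

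Calcium-regulated carriers exchange ATP-Mg for phosphate and so set the size of the matrix nucleotide pool. Slc25a23 had 118 in the failed heart, against 285 in the normal heart, a difference of -1.27 (2.42-fold higher in the normal heart). Its other probe sets were near or at the floor in both hearts (-0.20 and 0.00) and could not repeat it; with the mean of its probe sets the value was -0.49. The other calcium-regulated members that passed the filter differed less: Slc25a24 by 0.55, with 646 in the failed heart and 442 in the normal heart, and Slc25a25 by -0.15. Slc25a41, a relative without the calcium-binding part, was under the filter at -0.23.

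Of 4 amino acid carriers that passed the filter, 0 reached 2-fold either way and 1 was above 0 (64% of all genes), with a median of -0.36. Slc25a29, for basic amino acids, was at -0.68, the ornithine carrier Slc25a15 at -0.59 (its other probe sets from -2.29 to 1.05) and Slc25a45 at -0.14. The only other probe set of Slc25a15 that passed the level filter had the opposite direction, at 0.53. Its signal was 159 in the failed and 110 in the normal heart, so the direction for Slc25a15 is not settled. Slc25a38, the glycine carrier needed for heme synthesis, was the higher one with 154 in the failed heart, against 81.2 in the normal heart (0.92). Slc25a44, which carries branched-chain amino acids, had 134 in the failed heart, against 46.6 in the normal heart, a difference of 1.53 outside the count because the gene did not pass the level filter. At its other probe set the normal heart lay at the floor and the failed heart had 130.3, so both probe sets were higher in the failed heart. Slc25a48 was dim in both hearts.

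None of the 4 cofactor and nucleotide carriers that passed the filter was higher in the failed heart, under any scaling tried, and their differences ran from -0.64 to -0.04. Slc25a36, a carrier of pyrimidine nucleotides, had 1312 in the failed heart, against 1950 in the normal heart (-0.57), with -0.31 at its other probe set. Slc25a42, which imports coenzyme A, gave the lowest value of the group at -0.64. The peroxisomal carrier Slc25a17, the pyrimidine nucleotide carrier Slc25a33, the coenzyme A related Slc25a16 and the folate carrier Slc25a32 lay between -0.35 and 0.33, the last 2 under the filter.

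Iron and glutathione carriers differed by less than 2-fold. Slc25a37, mitoferrin of red cell precursors, was at -0.44, the related Slc25a28 at 0.07 (-0.20 as deposited), and the glutathione carrier Slc25a39 at 0.52, with 0.51 at its other probe set. Slc25a46, an outer membrane protein linked to mitochondrial shape, had 1943 in the failed heart, against 1897 in the normal heart (0.03). Slc25a34, with no agreed cargo, was at 0.08 (-0.19 as deposited), and Slc25a35 and Slc25a53 were under the filter at 0.31 and -0.74. In all, 11 members did not pass the mRNA filter and were not counted.

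Of the 19 measured enzymes of the malate-aspartate shuttle and citric acid cycle, 9 were at least 2-fold higher in the failed heart (3 as deposited, 1 with quantile normalization within the assay) and 0 lower, with a median of 0.99. All genes gave 11.8% higher, and those with a mean signal of at least 10 times the array median 22.2%. Sdha, a subunit of succinate dehydrogenase, was highest at 1.44 and Got1, the cytosolic aspartate aminotransferase, lowest at -0.47. Of 15 other genes of mitochondrial membrane transport that passed the filter, 2 were 2-fold higher (1 in both of those settings) and 0 lower, with a median of 0.59: Mpc2, part of the pyruvate carrier, stood highest at 1.42 and Abcb8, an ABC transporter, lowest at -0.48. Of 13 protein import genes 0 reached 2-fold either way, with a median of 0.74, from Tomm70, an outer membrane receptor, at 0.89 to Timm9, a chaperone that guides carrier proteins, at -0.07. The 2 of 15 lie near the share of all genes and the 0 of 13 below it. With quantile normalization over all 20 arrays 0 genes of each of these 3 lists were 2-fold higher (all genes 2.47%). The medians of these 3 lists were above 0 under each scaling (lowest 0.36, 0.16 and 0.30 with quantile normalization over all arrays), while that of the SLC25 members was at or below -0.04. These lists were chosen with results of these arrays known, and the difference between them and the carriers was not tested.

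Enrichment of a mark was taken as the log2 ratio of its ChIP signal to the pre-IP signal in that heart. All 8 marks of a heart share its 1 pre-IP array, so a low or high pre-IP value moves all 8 enrichments together. Over the 38 members the median enrichment lay between -0.30 and 0.17 for each mark in the failed heart and between -0.15 and 0.23 in the normal heart, while single genes spread from -3.36 to 2.29. The heat map of enrichments shows an order of members that recurred in part between the hearts for H3ac, H4ac, K4me2 and K9me2: Spearman's rho of the failed with the normal heart across the 38 genes was 0.61 for H3ac (0.53 over all genes), 0.66 for H4ac (0.56), 0.57 for K4me2 (0.51) and 0.62 for K9me2 (0.45). It was lower for K27me2 at 0.42 (0.44), K20me3 at 0.37 (0.30), K9me3 at 0.24 (0.30) and K4me3 at 0.14 (0.20). These rho values share no array, but the same probe sets stand on both sides, and genes are not independent replicates.

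**Figure D3:**
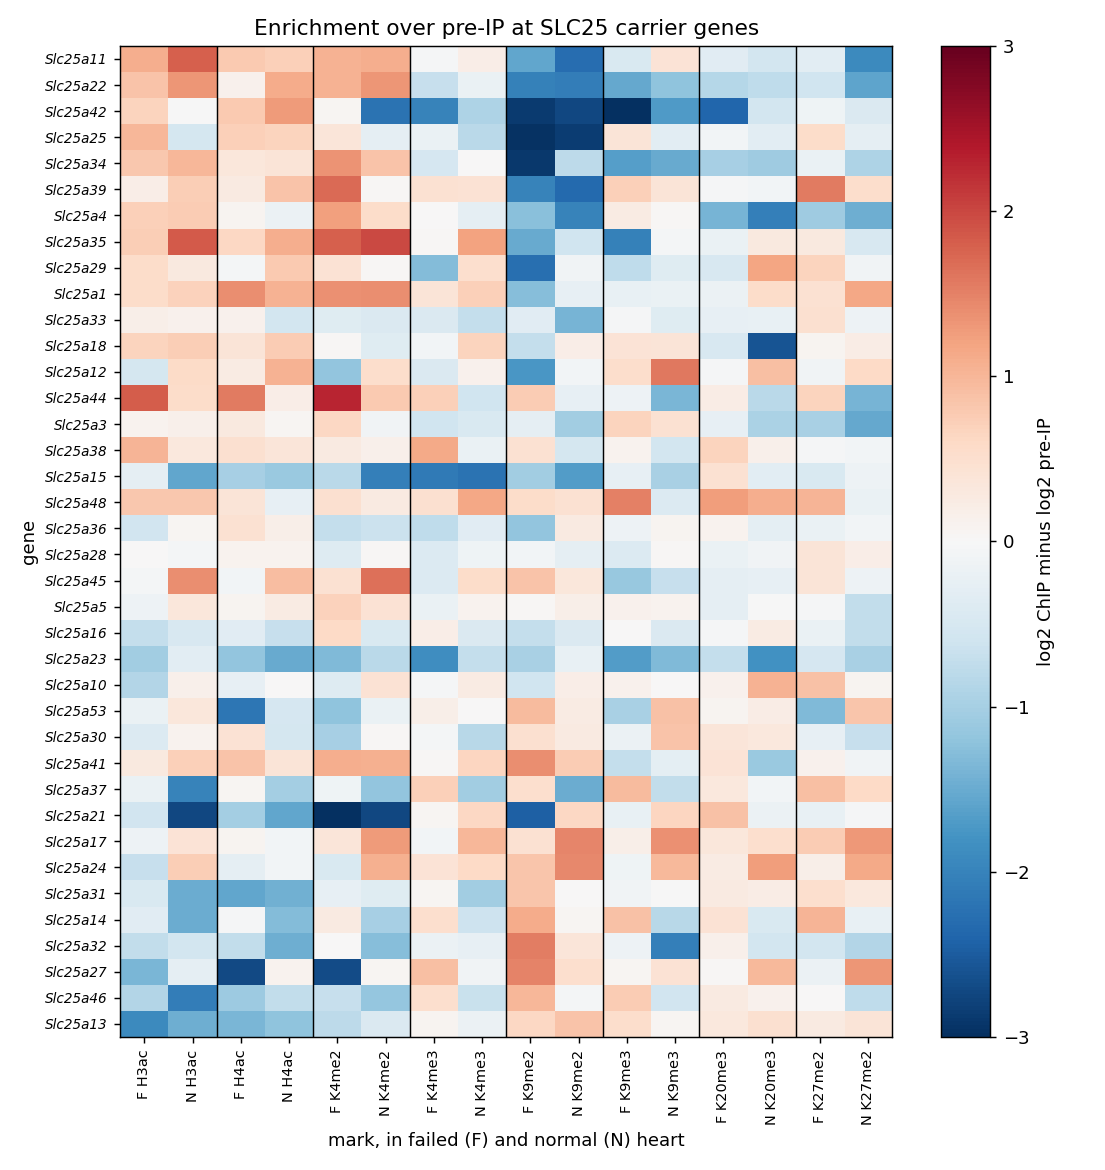
Enrichment over pre-IP (colour, log2, with values beyond 3 in size drawn at 3) of the 8 marks in the failed (F) and normal (N) heart (x axis) at the 38 SLC25 genes (y axis, ordered by mean H3ac minus mean K9me2 enrichment). Slc25a11 at the top has H3ac of 1.10 in the failed and 1.79 in the normal heart, and Slc25a13 at the bottom has -1.92 in the failed and -1.46 in the normal heart.

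Slc25a44 had the highest acetylation and K4me2 of the members in the failed heart (1.82 for H3ac, 1.56 for H4ac and 2.29 for K4me2) but not in the normal heart. Its pre-IP signal was 54.6 in the failed and 138 in the normal heart. At its other probe set the failed heart was not the higher one. There H3ac was 0.67 in the failed and 1.37 in the normal heart, H4ac 0.52 in the failed and 1.08 in the normal heart. K4me2 there was 1.56 in the failed and 1.61 in the normal heart. The oxoglutarate carrier Slc25a11 was the 1 member with H3ac of 1 or more in both (background 5.98%): its H3ac signal was 319 over a pre-IP signal of 149 in the failed heart, against 446 over 129 in the normal heart, enrichments of 1.10 in the failed and 1.79 in the normal heart. Slc25a35, with no agreed cargo, had the second highest mean H3ac, at 0.73 in the failed and 1.84 in the normal heart. The citrate carrier Slc25a1 had the highest mean H4ac of both hearts, at 1.40 in the failed and 1.05 in the normal heart, and was the 1 member at 1 or more in both (background 3.27%), followed on average by Slc25a42 at 0.79 in the failed and 1.27 in the normal heart. K4me2 reached 1 in both hearts at Slc25a1, Slc25a11, Slc25a22, Slc25a35 and Slc25a41 (5 of 38, background 10%), led by Slc25a35 at 1.80 in the failed and 1.98 in the normal heart. Slc25a44 followed by mean K4me2, at 2.29 in the failed and 0.79 in the normal heart.

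Slc25a13 was low in H3ac in both hearts, with H3ac signals of 16.3 in the failed and 27 in the normal heart over pre-IP signals of 61.5 in the failed and 74.1 in the normal heart. Its H3ac enrichment was -1.92 in the failed and -1.46 in the normal heart, and it was the 1 member at -1 or less in both (background 7.24%); at its other probe set the values were -0.48 in the failed and -1.02 in the normal heart. Its H4ac was also low, at -1.38 in the failed and -1.20 in the normal heart, and that recurred at the other probe set, at -1.01 in the failed and -1.18 in the normal heart. Thus the aspartate/glutamate carrier of liver had low acetylation relative to pre-IP in both hearts. H4ac of -1 or less in both hearts was found at 5 of 38 members, Slc25a13, Slc25a15, Slc25a21, Slc25a23 and Slc25a31 (background 7.33%), with the lowest means at Slc25a31 (-1.55 in the failed and -1.45 in the normal heart) and Slc25a23 (-1.19 in the failed and -1.51 in the normal heart). This did not recur at the other probe sets of Slc25a23, with H4ac of 0.42 and 0.85 in the failed and 0.64 and 0.09 in the normal heart. K4me2 was lowest at Slc25a21, whose K4me2 signal lay at the floor in both hearts, so that its -3.36 in the failed and -2.72 in the normal heart are upper limits; it was the 1 member at -1 or less in both (background 3.24%). Its H3ac was at -0.58 in the failed heart and at the floor in the normal heart. Slc25a15 had the next lowest mean K4me2, at -0.81 in the failed and -2.04 in the normal heart.

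K4me3 separated the members less. None of 38 had 1 or more in both hearts (background 1.37%), and Slc25a15 alone had -1 or less in both (background 1.39%), at -2.13 in the failed heart, where its signal was at the floor, and -2.22 in the normal heart. This did not recur at its 5 other probe sets, with K4me3 from -0.26 to 0.70 in the failed and from -0.39 to 3.40 in the normal heart. The 3.40 comes from a probe set whose pre-IP signal in the normal heart lay at the floor. The H4ac, K4me2 and K9me2 values given for Slc25a15 rest on the single probe set used for the gene. Slc25a42 was next lowest on average, at -2.01 in the failed and -0.93 in the normal heart. The highest means were those of Slc25a48 (0.49 in the failed and 1.17 in the normal heart) and Slc25a35 (0.03 in the failed and 1.21 in the normal heart).

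K9me2 was low at 7 of 38 members in both hearts, at -1 or less (background 8.92%): Slc25a4, Slc25a11, Slc25a15, Slc25a22, Slc25a25, Slc25a39 and Slc25a42. Slc25a25 had the lowest mean, with a K9me2 signal of 14.8 over a pre-IP signal of 115 in the failed heart, against 21.2 over 152 in the normal heart, enrichments of -2.95 in the failed and -2.85 in the normal heart. Slc25a42 had -2.86 in the failed heart and -2.74 in the normal heart, the normal value at the floor. Slc25a39 had -2.00 in the failed and -2.34 in the normal heart, but -0.59 in the failed and -0.80 in the normal heart at its other probe set. Slc25a11, which led in H3ac, had K9me2 of -1.56 in the failed and -2.28 in the normal heart, and Slc25a22 had -2.04 in the failed and -2.08 in the normal heart. No member had K9me2 of 1 or more in both (background 4.83%). The highest means were those of Slc25a24 (0.84 in the failed and 1.45 in the normal heart) and Slc25a41 (1.39 in the failed and 0.77 in the normal heart). The pre-IP signal of Slc25a24 was dim, at 27.9 in the failed and 18.4 in the normal heart, so its enrichments rest on little signal.

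H3ac in the failed heart and K9me2 in the normal heart, which share no array, ran against each other across the 38 genes with a rho of -0.55 (-0.22 over all genes). For H3ac in the normal and K9me2 in the failed heart rho was -0.21 (-0.31 over all genes), weaker in size. Other pairs of marks were also compared across the hearts, and the -0.55 was the lowest rho among them. With H3ac in the failed heart first, H3ac and K20me3 gave -0.33, and -0.42 the other way round (-0.21 and -0.32 over all genes). For K4me2 and K27me2 these were -0.40 and 0.14 (-0.10 and -0.06).

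K9me3 of -1 or less in both hearts was found at 4 of 38 members, Slc25a22, Slc25a23, Slc25a34 and Slc25a42 (background 4.04%), and 1 or more at none (background 2.38%). Slc25a42 had the lowest mean of both hearts, at -3.17 in the failed heart with the signal at the floor and -1.69 in the normal heart, and Slc25a34 the next lowest, at -1.65 in the failed and -1.52 in the normal heart. At the other probe sets of Slc25a23 the K9me3 enrichment was 0.23 and 0.69 in the failed and 0.51 and -0.65 in the normal heart. Slc25a12 and Slc25a17 had the highest means, at 0.53 in the failed and 1.58 in the normal heart for Slc25a12, and 0.17 in the failed and 1.36 in the normal heart for Slc25a17. The pre-IP signal of Slc25a17 was dim as well, at 53.5 in the failed and 29.2 in the normal heart.

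Slc25a4, the heart ADP/ATP carrier, had low K20me3 and K27me2 in both hearts, though single values of other members were lower. Its pre-IP signal was 302 in the failed and 418 in the normal heart, while its K20me3 signal was 115 in the failed and 100.3 in the normal heart and its K27me2 signal 145 in the failed and 152 in the normal heart. The K20me3 enrichment was thus -1.39 in the failed and -2.06 in the normal heart, and the K27me2 enrichment -1.06 in the failed and -1.46 in the normal heart. For both marks it was the 1 member of 38 at -1 or less in both hearts (background 3.08% for K20me3 and 4.98% for K27me2). Its K9me2 was also low, at -1.26 in the failed and -2.00 in the normal heart, and its H3ac was 0.71 in the failed and 0.77 in the normal heart. The phosphate carrier Slc25a3 was also low in K27me2, at -0.97 in the failed and -1.55 in the normal heart. Slc25a5 did not share this: its enrichments stayed between -0.74 and 0.68 for all 8 marks in both hearts.

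Slc25a18 was also low in mean K20me3, at -0.47 in the failed heart and -2.60 in the normal heart, the normal value at the floor. K20me3 of 1 or more in both hearts was found at Slc25a48 alone (background 1.95%), at 1.26 in the failed and 1.10 in the normal heart, followed on average by Slc25a24 at 0.24 in the failed and 1.25 in the normal heart. For K27me2 none of 38 reached 1 in both (background 1.9%). Slc25a39 (1.56 in the failed and 0.52 in the normal heart) and Slc25a17 (0.77 in the failed and 1.29 in the normal heart) had the highest means. The dim pre-IP signals of Slc25a24 and Slc25a17 given above limit these values too. At the other probe set of Slc25a39 K27me2 was -0.99 in the failed and 0.28 in the normal heart. Other members at the floor on ChIP arrays, where enrichments are limits, were Slc25a16 (failed H3ac and K9me2) and Slc25a32 (failed H4ac and normal K9me3).

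The comparison of marks between the hearts addressed which carriers differed in histone modification in failure. Pre-IP DNA itself was compared first: of 19 members with enough signal for its filter, 0 reached 2-fold higher (background 3.96%) and 0 reached 2-fold lower (background 3.53%). Over all 38 members, filter or not, pre-IP differences ran from -1.34 for Slc25a44 to 1.02 for Slc25a18.

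Differences of H3ac, H4ac and K4me2 reached 2-fold at few carriers. For H3ac 21 members passed the filter, of which Slc25a25, Slc25a44 and Slc25a46 were at least 2-fold higher in the failed heart (background 10.7%) and Slc25a12, Slc25a35 and Slc25a45 lower (background 8.65%). For H4ac, Slc25a44 was higher (1 of 21, background 4.91%) and Slc25a45 lower (1 of 21, background 6.49%). For K4me2, Slc25a44 was higher (1 of 21, background 11.6%) and Slc25a12, Slc25a30 and Slc25a45 were lower (3 of 21, background 6.66%). Each count is of 3 genes or fewer, so no departure from the shares of all genes is read from it.

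Slc25a45, grouped here with amino acid carriers, was the member lower in all 3 of these marks and passing the filter. Its pre-IP signal was nearly the same in both hearts, 105 in the failed and 104 in the normal heart. The H3ac signal was 100.3 in the failed heart, against 276 in the normal heart (-1.47 over pre-IP), H4ac 98.6 in the failed heart, against 198 in the normal heart (-1.02), and K4me2 144 in the failed heart, against 328 in the normal heart (-1.19). The failed heart was thus at about its pre-IP level in the acetylations, and the normal heart above it. K4me3 differed in the same direction by -0.96, while K9me2 and K27me2 were higher in the failed heart, by 0.53 and 0.54. Its mRNA differed by -0.14 only, with 329.7 in the failed and 364 in the normal heart. Of all 14217 genes 4.46% were lower by 2-fold in H3ac, H4ac and K4me2 together; the other member was Slc25a27, which did not pass the filter, and whose other probe sets did not show it.

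Slc25a12 was lower over pre-IP in the failed heart in all 8 marks, as was Slc25a24 (2 of 38, background 12.5%). Slc25a24 passed the level filter for none of the marks, with pre-IP signals of 27.9 in the failed and 18.4 in the normal heart. Without pre-IP, Slc25a24 was higher in the failed heart in 2 marks and lower in 6. The pre-IP signal of Slc25a12 was 156 in the failed and 107 in the normal heart, a difference of 0.55 that lowers each enrichment. Without pre-IP its ChIP signal was still lower in the failed heart in 8 of 8 marks, with differences from -1.16 to -0.02. Signals were 68.5 in the failed and 154 in the normal heart for K4me2, 46.7 in the failed and 101 in the normal heart for K9me2, and 109 in the failed and 158 in the normal heart for H3ac. The differences over pre-IP were -1.71 for K4me2, -1.66 for K9me2 and -1.09 for H3ac, and its mRNA was lower as well, by the -0.46 given above.

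**Figure D4:**
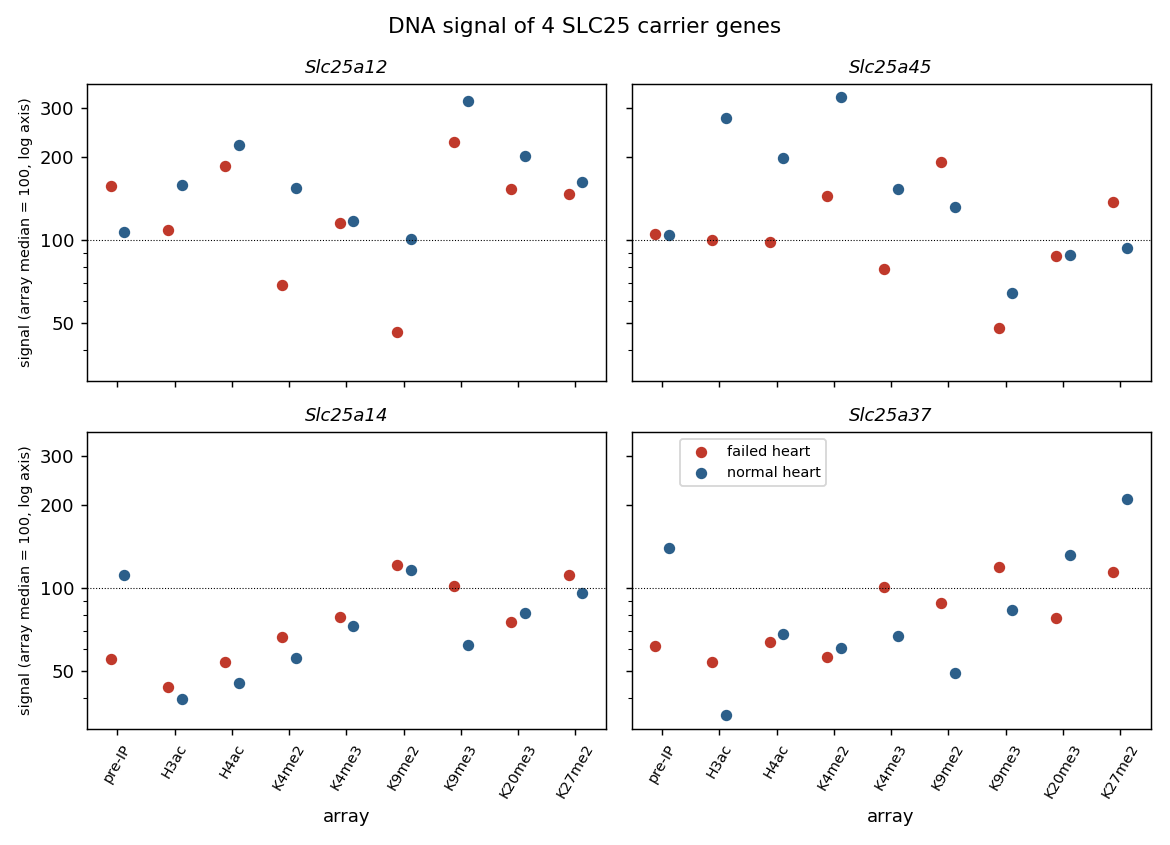
DNA signal (y axis, array median 100, log axis) of Slc25a12, Slc25a45, Slc25a14 and Slc25a37 on the pre-IP array and 8 ChIP arrays (x axis) of the failed (red) and normal (blue) heart, 1 point per array, with a dotted line at the array median. Slc25a45 has equal pre-IP and H3ac, H4ac and K4me2 lower in the failed heart, while Slc25a14 and Slc25a37 differ most on the pre-IP arrays, at 55.4 and 61.9 in the failed heart, against 112 and 139 in the normal heart.

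In the other direction all 8 marks were higher over pre-IP in the failed heart at Slc25a14, Slc25a37, Slc25a38 and Slc25a44 (4 of 38, background 10.4%). Their pre-IP signals were lower in the failed heart: 55.4 in the failed and 112 in the normal heart for Slc25a14, 61.9 in the failed and 139 in the normal heart for Slc25a37, and 54.6 in the failed and 138 in the normal heart for Slc25a44. At Slc25a44 the H3ac signal itself was 193 in the failed and 203 in the normal heart, H4ac 161 in the failed and 158 in the normal heart, and K4me2 267 in the failed and 239 in the normal heart. Its differences of 1.26, 1.36 and 1.49 in these marks thus came with a pre-IP difference of -1.34, and at its other probe set, with pre-IP signals of 368 in the failed and 303 in the normal heart, H3ac was 0.67 in the failed and 1.37 in the normal heart. Slc25a38 had a smaller pre-IP gap, 209 in the failed and 265 in the normal heart. Its K4me3 signal was 461 in the failed heart, against 230 in the normal heart, a difference of 1.34, and its mRNA was the higher one by 0.92.

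Slc25a25 had an H3ac signal of 227 in the failed heart, against 105 in the normal heart, with pre-IP of 115 in the failed and 152 in the normal heart, a difference of 1.52. Its H4ac signal was 188 in the failed and 242 in the normal heart, so the difference was not shared by the other acetylation. Slc25a35 had H3ac of 123 in the failed and 223 in the normal heart (-1.10). Slc25a30, whose mRNA was higher, had K4me2 of 76.9 in the failed heart, against 183 in the normal heart (-1.02); at its other probe set K4me2 enrichment was 0.08 in the failed and 1.32 in the normal heart.

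Among K4me3 and the K9 marks Slc25a46 recurred. K4me3 was at least 2-fold higher in the failed heart at Slc25a31, Slc25a38 and Slc25a46 (3 of 18, background 8.89%) and lower at none (background 9.84%), with Slc25a31 at 1.10, from signals of 119 in the failed and 77.2 in the normal heart. K9me2 was higher at Slc25a33 and Slc25a46 (2 of 15, background 16%) and lower at Slc25a34 and Slc25a36 (2 of 15, background 9.3%). K9me3 was higher at Slc25a46 (1 of 17, background 9.14%) and lower at Slc25a12 and Slc25a30 (2 of 17, background 11.4%), by -1.04 at each.

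Slc25a46 had pre-IP signals of 226 in the failed and 326 in the normal heart (-0.53). Its signals were 122 in the failed and 77.1 in the normal heart for H3ac, 323 in the failed and 206 in the normal heart for K4me3, 452 in the failed and 313 in the normal heart for K9me2, and 386 in the failed and 219 in the normal heart for K9me3. Over pre-IP these are differences of 1.19, 1.18, 1.06 and 1.35, for marks of active and of less active chromatin alike, with 107 in the failed and 196 in the normal heart for H4ac going the other way. That exception did not recur at its other probe set, where H4ac was -0.42 in the failed and -0.87 in the normal heart. This other probe set also had the failed heart higher in H3ac (-0.13 in the failed and -1.60 in the normal heart) and K9me3 (1.32 in the failed and 0.14 in the normal heart), and a lower pre-IP signal too, 52.0 in the failed and 114 in the normal heart. The part of pre-IP in these differences was not tested beyond the signals given.

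At Slc25a34, K9me2 was 28.3 in the failed heart, against 106 in the normal heart, with pre-IP of 209.5 in the failed and 183 in the normal heart, a difference of -2.10. Slc25a36 had K9me2 of 58.2 in the failed heart, against 157 in the normal heart (-1.46), but at its other probe set the enrichment was 0.11 in the failed and 0.15 in the normal heart. Slc25a33, a pyrimidine nucleotide carrier, was higher by 1.08, with 161 in the failed and 92.4 in the normal heart. For K20me3, Slc25a29 was lower with 69.4 in the failed heart, against 199.7 in the normal heart, a difference of -1.66 (1 of 17, background 8.56%), and no member was higher (background 8.91%).

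K27me2 gave no member at or past 2-fold among the 19 that passed the filter (background 6.83% higher and 6.38% lower), yet its differences leaned one way. Of all 38 members, 27 had a higher K27me2 enrichment in the failed heart (background 49.5%), with a median difference of 0.43, against -0.01 over all genes. Of the 19 that passed, 16 were higher (background 52.1%), with a median of 0.46, against 0.03. Without pre-IP the K27me2 signal was higher in the failed heart at 24 of 38 (background 50.7%), with a median of 0.35, against 0.01. The largest difference that passed the filter was 0.98 at Slc25a22, with a K27me2 signal of 206 in the failed heart, against 83.5 in the normal heart. Slc25a11, under the filter, had 119 in the failed heart, against 34.3 in the normal heart (1.59). Slc25a4 differed by 0.40, Slc25a3 by 0.58 and Slc25a5 by 0.69, while Slc25a12 was lowest of those that passed at -0.70. This lean rests on 1 K27me2 array and 1 pre-IP array per heart.

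**Figure D5:**
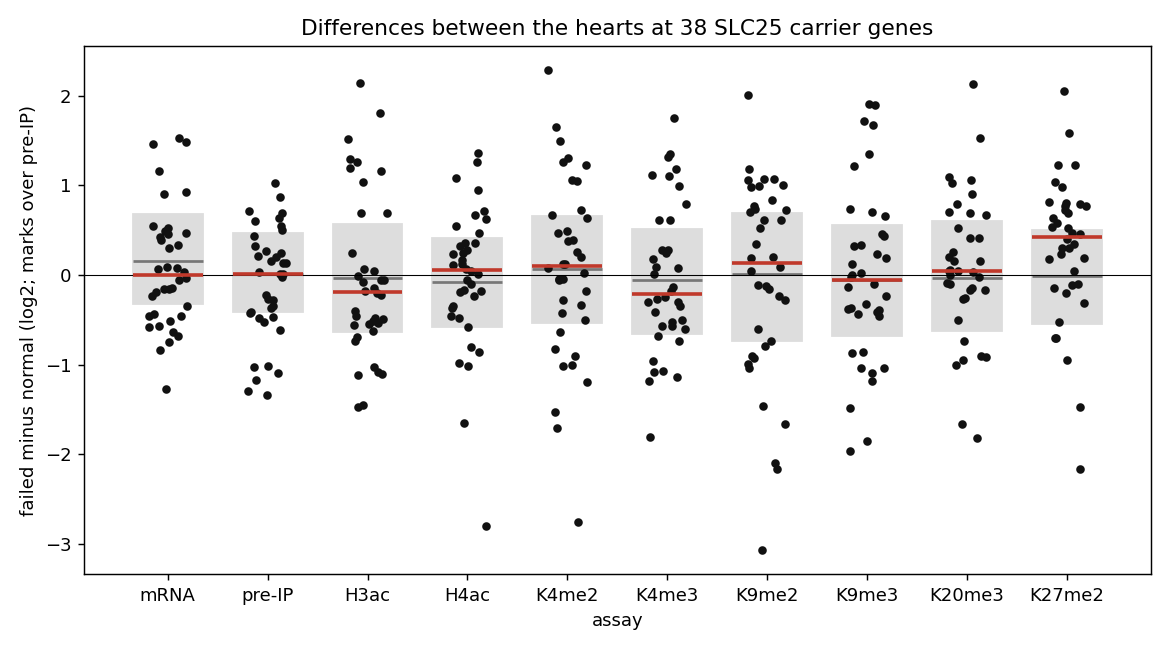
Difference between the hearts (y axis, failed minus normal, log2, marks over pre-IP) in mRNA, pre-IP and 8 marks (x axis) at the 38 SLC25 genes (points, spread sideways for view), with their median (red line) and the median and quartiles of 14217 genes (grey line and box). The members' median lies near that of all genes in most columns and at 0.43, against -0.01, for K27me2.

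K9me2 differences also lay above 0 at 12 of the 15 members that passed its filter (background 57.5%), with a median of 0.62, against 0.16 over all genes that passed. Over all 38 members, however, the count was 21 and the median 0.14, against 0.01. Without pre-IP the K9me2 signal was higher in the failed heart at 17 of 38 (background 51.7%), with a median of -0.07, against 0.03. Over the 15 that passed, the median without pre-IP was 0.37. H3ac leaned below 0: its differences lay above 0 at 13 of 38 members (background 48.6%) and at 7 of the 21 that passed its filter (background 51.7%). Without pre-IP the H3ac signal was higher in the failed heart at 16 of 38 (background 49.7%). Medians of the marks other than K27me2 and K9me2 over members that passed ran from -0.26 for K4me3 to 0.08 for K4me2.

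Whether carriers with more mRNA also differed in a mark was described by Spearman's rho across the 38 genes. It lay between -0.06 and 0.13 for 7 of the marks and was 0.35 for K4me3, where all genes gave 0.00. The ADP/ATP carriers Slc25a4 and Slc25a5, with the largest mRNA differences of the genes that passed the filter, differed by 0.27 and -0.30 in K4me3, and by -0.05 and -0.49 in H3ac, all under 2-fold.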

How the data were processed

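mRNA, pre-IP DNA and ChIP DNA of 8 marks from 2 rat hearts were measured on 20 Affymetrix Rat Genome 230 2.0 arrays, 1 per assay and heart. The deposited table holds linear intensity for 31099 probe sets, 57 of them controls. A mean without 2% at each end came to between 500.03 and 500.17 on every array. How the authors summarised and scaled the values, and with which tool, was not given in the sources used here. Per the labels, RNA and DNA were amplified and biotin-labelled.

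Arrays were set to a common median of 100, floored at 10 and log2 transformed. Symbols came from the platform annotation, with 20826 probe sets of 1 gene and 436 of several genes, which were left out; identifiers of 20758 matched the current gene table, which renamed 0. Enrichment, differences, the 2-fold threshold and the level filter (mean log2 over the arrays compared at or above the median of all probe sets) are given where used. Python 3.11.15, numpy 2.4.6, pandas 2.3.3, scipy 1.17.1 and matplotlib 3.10.9 were used, and the counting was tested on simulated data. Arrays give no counts, and their number limits the precision.

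Genes were named by a rule. For mRNA it took members past 2-fold that passed the filter, the 5 brightest and Slc25a3, Slc25a4, Slc25a5, Slc25a11, Slc25a12 and Slc25a13. For each mark it took the 2 highest and 2 lowest mean enrichments and up to 3 differences each way. For each list it took the highest and lowest gene. Other members were named to account for all 38 or after their values were seen, among them Slc25a14, Slc25a22, Slc25a24, Slc25a27 and Slc25a37. The members and lists were chosen with earlier results of these data known. Alternatives were the values as deposited, quantile normalization over all arrays or within each assay, a floor of 1 or 50, the mean of a gene's probe sets, no level filter and no pre-IP subtraction. Endothelium (median mRNA difference 0.20) and adipocyte markers (-0.19) were also measured.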

Additional observations from a re-analysis of the deposited data

How the results depend on the processing

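With no replicates, a result was taken as unchanged when it moved by less than 1.5-fold. Of 304 alternatives for 46 results 272 did so, 32 moved and 0 called values turned sign. Only a value of 1 or more in size could be counted as turned, which held for 4 mRNA differences, so the 0 says little. Smaller values could change sign and still count as unchanged. The median H3ac enrichment in the failed heart did so, at -0.10, and 0.14 with quantile normalization over all arrays. With quantile normalization over all 20 arrays, members at least 2-fold higher in mRNA numbered 0 and lower 0, members past 2-fold in K20me3 2 and in K27me2 2. With quantile normalization within each assay, which was chosen after seeing the data, they numbered 0 higher and 3 lower in mRNA (Slc25a22, Slc25a23 and Slc25a36), and past 2-fold 1 in H4ac, 2 in K9me2 and 1 in K9me3. As deposited they numbered 2 lower in mRNA (Slc25a22 and Slc25a23), and 1 in H4ac, 2 in K9me2 and 1 in K9me3, and the median K4me2 enrichment in the failed heart was -0.51. With the mean of probe sets 0 were lower in mRNA, and 1 was past 2-fold in H4ac and 1 in K27me2. A floor of 50 gave 1 in K27me2. Without the level filter the counts, which then cover more genes, were 14 for H3ac, 6 for H4ac, 14 for K4me2, 11 for K4me3, 12 for K9me2, 13 for K9me3, 8 for K20me3 and 7 for K27me2. Apart from the filter, the cause of these changes was not tested. Shares of all genes were not computed for the mark counts under these alternative settings, so nothing about the carriers is read from them. Among members that passed the mRNA filter, the direction of mRNA turned for Slc25a3 (-0.25 to 0.47) and Slc25a46 (-0.48 to 0.46). It also turned for Slc25a28 as deposited and with both quantile settings (-0.23 to -0.18), and for Slc25a34 as deposited (-0.19). Of members under the filter, Slc25a21 went from -0.05 to 0.05 and 0.08 with the quantile settings. The other probe sets of Slc25a10 (-1.43), Slc25a32 (2.07) and Slc25a48 (0.93) had the opposite direction to those used. So did the only other probe set of Slc25a15 that passed the level filter (0.53). The median K27me2 difference stayed between 0.24 and 0.53. Over all genes 11.8% were 2-fold higher in mRNA and 3.14% lower, against 6.10% and 6.86% as deposited. With quantile normalization these shares were 2.47% and 1.77% over all 20 arrays, and 6.35% and 5.79% within each assay. No paired analysis was possible because each assay had 1 array per heart. Differences of probe sets near the floor or under the array median carry the least signal, and nothing here separates the hearts from their arrays.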
